A study of Mus musculus with 14 samples.

Results

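Kidney mRNA of 14 male C57BL/6J mice was examined for 9 genes of salt transport in the distal nephron, namely *Slc12a1*, *Umod*, *Kcnj1*, *Slc12a3*, *Wnk1*, *Wnk4*, *Scnn1a*, *Scnn1b*, and *Scnn1g*. The members were the rows whose gene symbol equalled 1 of these names, and 9 of 9 were found among the 21878 genes listed for every mouse. Sample titles put 3 mice in the WT control group, 4 in the WT diabetic group, 3 in the *Cfb-/-* control group, and 4 in the *Cfb-/-* diabetic group. *Cfb* encodes complement factor B, the serine protease of the alternative pathway of complement, and the labels call its loss a knockdown where the study's methods describe a knockout bred with WT littermates. The knockout was not limited to the kidney. Diabetic mice had been given a diet with 60% fat for 4 weeks from an age of 8 weeks, followed by streptozotocin (STZ), which destroys pancreatic beta cells, at 60 mg/kg on 5 days. Control mice had a diet with 10% fat and the citrate buffer alone, although the treatment field of their labels carries the same diabetes text as that of the diabetic mice. Diet and STZ differed together between these groups, so their parts cannot be told apart. The study's methods place sacrifice 21 weeks after STZ, while a time of 34 weeks with no starting point stands in the labels. The labels name the kidney as the tissue and no zone of it.

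The distal nephron reclaims the salt that the proximal tubule has left in the filtrate. In the thick ascending limb, salt enters through the furosemide-sensitive cotransporter NKCC2 (*Slc12a1*), while the potassium channel ROMK (*Kcnj1*) returns potassium to the lumen and uromodulin (*Umod*) is secreted into the urine. The distal convoluted tubule takes up salt through the thiazide-sensitive cotransporter NCC (*Slc12a3*), which kinases of the WNK family (*Wnk1*, *Wnk4*) regulate through the kinases SPAK and OSR1. In the collecting duct, the epithelial sodium channel ENaC is built of an alpha (*Scnn1a*), a beta (*Scnn1b*), and a gamma (*Scnn1g*) subunit and responds to aldosterone.

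The genes lie on chromosomes 2, 6, 7, 8, 9, and 11 of the GRCm38.p6 build that the labels name. RefSeq places *Slc12a1* on chr2:125152510-125230002, *Umod* on chr7:119462708-119479262, *Kcnj1* on chr9:32372418-32399197, and *Slc12a3* on chr8:94329109-94366222. It places *Wnk1* on chr6:119923969-120038695, *Wnk4* on chr11:101260537-101277409, and *Scnn1a* on chr6:125314271-125344943. *Scnn1g* (chr7:121734420-121768482) and *Scnn1b* (chr7:121865038-121918728) share a strand, with 96555 bp between them. The body of *Scnn1b* overlaps *Cog7*, a gene of the opposite strand with a mean FPKM of 11.7 here. The libraries were stranded, but whether the strand was used in counting is not given in the sources used here. The 8 other members overlap no other gene that is a row of the files. The FPKM of *Wnk1* is a value per gene, so its short kidney-specific transcript and its full-length transcripts are not separated.

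Promoter sequences were available from RefSeq for 8 of the 9 genes, and those of 3 pairs of genes whose levels varied together between mice of a group are shown here, each ending at the outermost RefSeq start of its gene and read 5′ to 3′ on the gene's own strand. The letters GTTAAT (a half-site of HNF1, a factor of kidney epithelium), TATAAA (the TATA box), and ACANNNTGT (the core of the element bound by the mineralocorticoid and glucocorticoid receptors) were searched on both strands. Capitals mark a match, and no matches overlapped. The *Slc12a1* stretch is chr2:125152410-125152509 and the *Umod* stretch is chr7:119479263-119479474 on the minus strand.
Slc12a1: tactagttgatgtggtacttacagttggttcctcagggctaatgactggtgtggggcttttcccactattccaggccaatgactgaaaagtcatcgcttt
Umod: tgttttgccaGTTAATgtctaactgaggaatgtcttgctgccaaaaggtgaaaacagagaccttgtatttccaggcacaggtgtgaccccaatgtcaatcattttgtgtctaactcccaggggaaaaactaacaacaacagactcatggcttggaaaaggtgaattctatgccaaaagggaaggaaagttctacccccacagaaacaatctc
The *Slc12a3* stretch is chr8:94329009-94329108 and the *Wnk4* stretch is chr11:101260437-101260536, both on the plus strand.
Slc12a3: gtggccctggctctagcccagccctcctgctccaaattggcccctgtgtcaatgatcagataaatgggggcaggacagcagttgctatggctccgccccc
Wnk4: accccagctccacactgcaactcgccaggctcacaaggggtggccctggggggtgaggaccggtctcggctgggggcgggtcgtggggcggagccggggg
The *Scnn1b* stretch is chr7:121864938-121865037 and the *Scnn1g* stretch is chr7:121734320-121734419, both on the plus strand.
Scnn1b: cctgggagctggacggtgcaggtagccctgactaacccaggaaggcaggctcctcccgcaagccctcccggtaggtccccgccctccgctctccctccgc
Scnn1g: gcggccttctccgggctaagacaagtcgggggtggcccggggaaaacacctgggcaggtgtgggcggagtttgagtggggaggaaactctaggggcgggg
Among the 8 genes, GTTAAT was found only before *Umod*, with its first base at -202 from the start, and TATAAA only before *Slc12a3*, at -32 from a start inside the gene that a further transcript uses. ACANNNTGT was found before none of the 8. Each search covered the same length before the listed start of a promoter, longer than the stretches shown. A match can therefore lie outside a stretch, as that of *Slc12a3* does. Of 32851 promoters, 6.43% held GTTAAT, 12.4% held TATAAA, and 5.84% held ACANNNTGT. These matches are descriptions of letters and do not show binding.

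The deposited values were FPKM, fragments counted per length of transcript and per depth of the library. Their sum per mouse lay from 330246 to 488196, and the relative depth read from the steps between low values ranged from 0.839 to 1. The most abundant gene of each mouse held 10.2% to 13.9% of the summed FPKM in control mice and 2.49% to 4.60% in diabetic mice. It was the same gene in all control mice and another gene in some of the diabetic mice. A comparison between mice depends on this composition as well. Absolute depth is unknown. Files of no 2 mice were the same, and log2 values of mice of a group correlated at 0.990 to 0.995. *Cfb* reads lay from 56.7 to 131 FPKM in the 7 WT mice and from 1.13 to 2.22 FPKM in the 7 *Cfb-/-* mice, which fits each mouse's label. Proximal tubule genes were present, with the summed FPKM of 5 of them between 558 and 2521. They do not show which kidney zones were sampled. In tissue RNA, fewer cells of a type and less RNA per cell cannot be told apart. Whether the mice of a group were separate litters is not stated, and the p-values measure the spread between these mice.

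The 9 genes were well expressed in every mouse, between 8.67 and 1500 FPKM. *Umod* stood first in each group, with a mean of 594 ± 188 FPKM in WT control mice (SD, n = 3), 883 ± 138 in WT diabetic mice (n = 4), 933 ± 518 in *Cfb-/-* control mice (n = 3), and 953 ± 112 in *Cfb-/-* diabetic mice (n = 4). It ranked between 13 and 152 among the genes of a mouse. *Slc12a1* and *Slc12a3* took ranks 2 and 3 in each group, in either order and with overlapping ranges, and *Kcnj1* followed at rank 4. In WT control mice the range of *Kcnj1* overlapped that of *Wnk4*, which it exceeded in 2 of 3 mice. *Scnn1b* and *Scnn1g* stood last in each group, and their ranges overlapped each other. In between, *Wnk4* exceeded *Scnn1a* and *Wnk1* in both control groups, with means of 36.2 ± 8.44 (WT) and 36.7 ± 0.604 FPKM (*Cfb-/-*, n = 3 each). In both diabetic groups *Scnn1a* stood above *Wnk1* and *Wnk4*, with means of 40.8 ± 8.32 (WT) and 55.5 ± 16.8 FPKM (*Cfb-/-*, n = 4 each). The ranges of *Scnn1a* and *Wnk1* overlapped in both diabetic groups, as those of *Wnk4* and *Scnn1a* did in WT control mice.

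**Figure D1:**
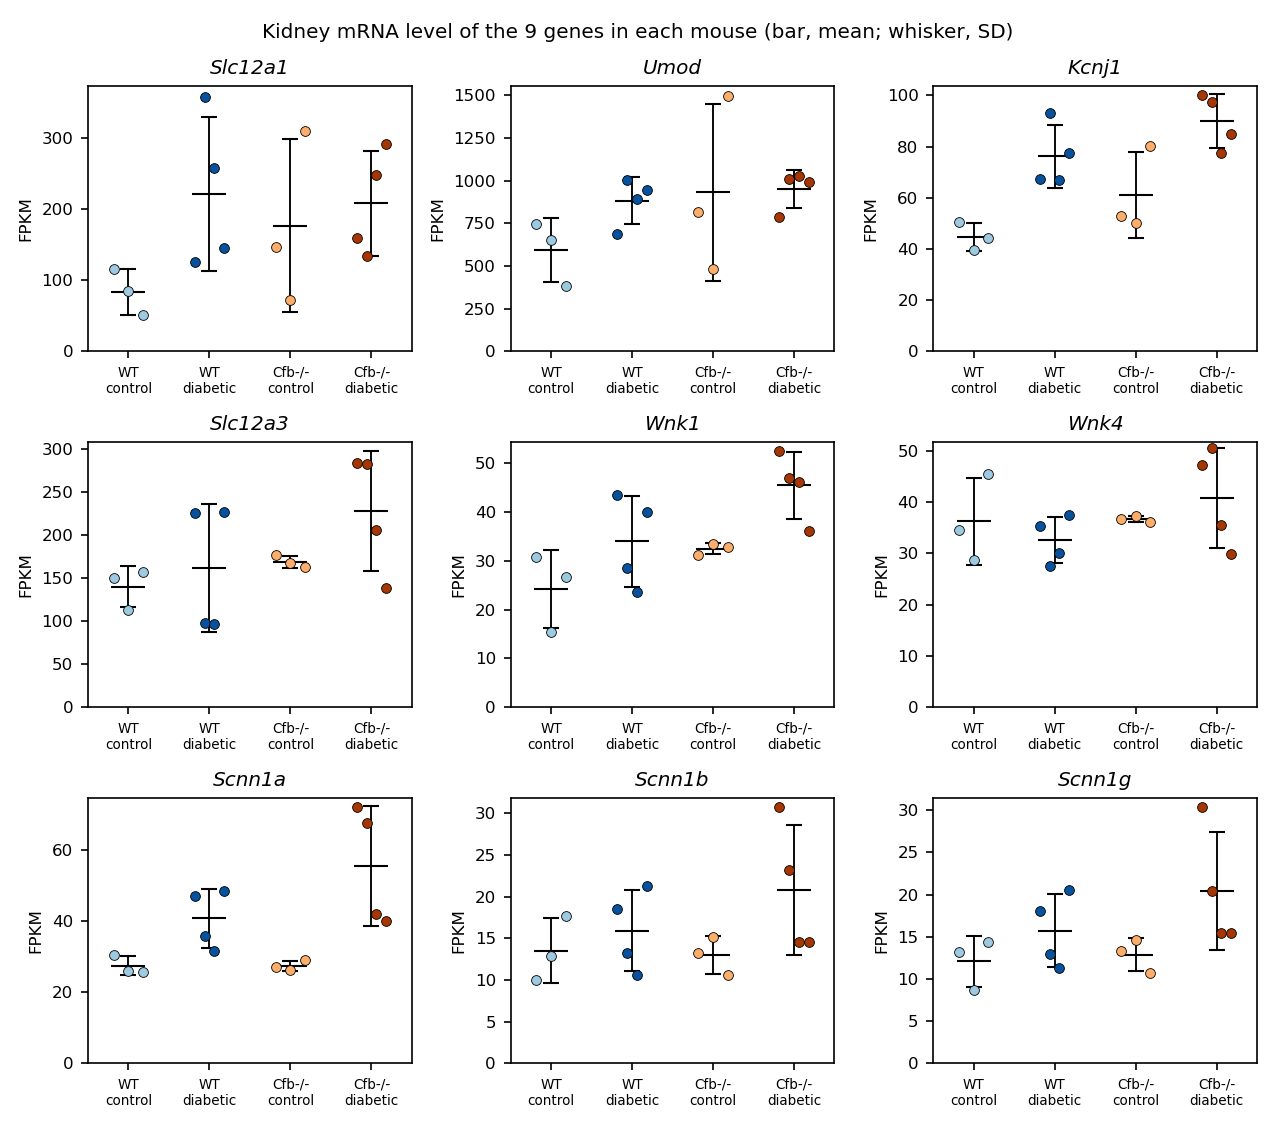
FPKM of each of the 9 genes (vertical axes, starting at 0) in each mouse (points) of the 4 groups, with the group mean (bar) and SD (whisker; n = 3 control and n = 4 diabetic mice per genotype). Diabetic mice lie wholly above control mice for *Slc12a1* and *Kcnj1* in WT mice, for *Scnn1g* and *Wnk1* in *Cfb-/-* mice, and for *Scnn1a* in both genotypes, and *Slc12a1* spreads from 51.5 to 358 FPKM over all mice. Of all genes tested, 35.5% lie wholly higher in WT and 33.6% in *Cfb-/-* diabetic mice.

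The first question was whether diabetes changed these genes in WT mice and in *Cfb-/-* mice. *Kcnj1* and *Scnn1a* rose in diabetic mice of both genotypes, *Slc12a1* rose in WT diabetic mice, and no member fell, except *Wnk4* in WT mice under median-ratio scaling alone. *Kcnj1* rose 1.70-fold in WT mice and 1.5-fold in *Cfb-/-* mice, *Scnn1a* 1.47-fold and 1.95-fold, and *Slc12a1* 2.55-fold in WT mice. With limma on log2(FPKM + 0.1) over 14912 genes, 3 of 9 members were higher in WT diabetic mice at a Benjamini-Hochberg adjusted p under 0.05, where 36.2% of all genes tested were higher and 9.97% lower. In *Cfb-/-* mice, 2 of 9 were higher, where 27.4% of all genes were higher and 6.40% lower. The members' shares were thus near the background. Diabetic mice lay wholly above control mice for 3 of 9 members in each genotype. Among all genes tested, 35.5% (WT) and 33.6% (*Cfb-/-*) did so, which is near the members' share as well. The median difference of all genes was 0.29 (log2) in WT and 0.22 in *Cfb-/-* mice, and the median over the 9 members was 0.50 and 0.47. Higher genes made up 78.4% of the calls in WT mice, and 50.3% after median-ratio scaling or 44.2% after quantile normalization. In *Cfb-/-* mice, these shares were 81.0%, 56.8%, and 49.1%. Relative to the median of all genes, *Kcnj1* was higher by 0.47 (WT) and 0.37 (*Cfb-/-*), and *Scnn1a* by 0.26 and 0.74. *Slc12a1* was higher by 1.06 in WT mice on this measure. Differences given below are not relative to this median unless stated.

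In the thick ascending limb, *Slc12a1* stood at 116, 84.2, and 51.5 FPKM in WT control mice and at 125, 358, 258, and 145 in WT diabetic mice. It stood at 147, 72.6, and 311 FPKM in *Cfb-/-* control mice and at 159, 135, 248, and 291 in *Cfb-/-* diabetic mice. The WT groups did not overlap, although the lowest diabetic and the highest control mouse were close, and the *Cfb-/-* groups overlapped widely. *Slc12a1* was higher in WT diabetic mice by 1.35 ± 0.466 on the log2 scale (SE; adjusted p = 0.0293, limma), or by 1.06 relative to the median of all genes. In *Cfb-/-* mice the difference was 0.41 ± 0.466 (adjusted p = 0.524, limma). The call in WT mice was lost with median-ratio scaling (1.07, adjusted p = 0.0807) and without WT control mouse 2 (adjusted p = 0.0723), WT control mouse 3 (0.122), WT diabetic mouse 2 (0.0816), or WT diabetic mouse 3 (0.0666).

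*Kcnj1* held 50.4, 39.6, and 44.3 FPKM in WT control mice and 67.4, 93.3, 67.0, and 77.4 in WT diabetic mice. In *Cfb-/-* mice it held 52.9, 50.0, and 80.3 FPKM in control mice and 100, 97.5, 77.5, and 85.1 in diabetic mice. All WT diabetic mice were above all WT control mice, whereas *Cfb-/-* control mouse 3 exceeded 1 *Cfb-/-* diabetic mouse. *Kcnj1* was higher by 0.76 ± 0.167 in WT diabetic mice (adjusted p = 0.00239, limma), and this call held without any 1 WT mouse. In *Cfb-/-* diabetic mice it was higher by 0.59 ± 0.167 (adjusted p = 0.0143), a call lost with median-ratio scaling (0.34, adjusted p = 0.0988) and without *Cfb-/-* control mouse 1 (adjusted p = 0.0682) or 2 (0.0827). *Umod* differed by 0.61 ± 0.309 in WT (adjusted p = 0.116) and by 0.18 ± 0.309 in *Cfb-/-* mice (adjusted p = 0.691). Its ranges overlapped in both genotypes, from 383 to 744 FPKM in WT control against 687 to 1005 in WT diabetic mice, and from 483 to 1500 without and 787 to 1026 with diabetes in *Cfb-/-* mice.

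In the distal convoluted tubule, *Slc12a3* stood at 150, 113, and 157 FPKM in WT control mice and at 225, 97.8, 96.3, and 226 in WT diabetic mice. It stood at 176, 167, and 162 FPKM in *Cfb-/-* control mice and at 283, 282, 206, and 138 in *Cfb-/-* diabetic mice. Diabetic mice of both genotypes lay on either side of their controls. In WT diabetic mice, 2 mice lay above and 2 below the 3 control mice. The difference was 0.10 ± 0.317 in WT mice (adjusted p = 0.819, limma) and 0.37 ± 0.317 in *Cfb-/-* mice (adjusted p = 0.387). The 95% intervals reached from -0.58 to 0.78 and from -0.30 to 1.05, and differences of these sizes are compatible with the values of these mice.

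Of the ENaC subunits, *Scnn1a* alone passed the test. *Scnn1a* stood at 30.6, 26.0, and 25.8 FPKM in WT control mice and at 47.1, 36.0, 31.7, and 48.6 in WT diabetic mice. It stood at 27.0, 26.3, and 29.0 FPKM in *Cfb-/-* control mice and at 72.2, 67.7, 42.1, and 39.9 in *Cfb-/-* diabetic mice. The groups did not overlap in either genotype. *Scnn1a* was higher by 0.55 ± 0.204 in WT diabetic mice (adjusted p = 0.0392, limma) and by 0.96 ± 0.204 in *Cfb-/-* diabetic mice (adjusted p = 0.00226). The call in *Cfb-/-* mice held without any 1 *Cfb-/-* mouse and under each scaling tried. The call in WT mice was lost with median-ratio scaling (0.27, adjusted p = 0.241), with quantile normalization (adjusted p = 0.0580), with no filter (adjusted p = 0.0533), and without WT control mouse 2 (0.117) or 3 (0.103) or WT diabetic mouse 1 (0.0993) or 4 (0.0980).

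The beta and gamma subunits did not pass the test. In WT mice, *Scnn1b* spanned 10.0 to 17.7 FPKM without diabetes and 10.6 to 21.3 with it, and in *Cfb-/-* mice 10.6 to 15.2 and 14.5 to 30.8. *Scnn1g* spanned 8.67 to 14.4, 11.3 to 20.5, 10.7 to 14.6, and 15.4 to 30.4 FPKM in the same order. Only the *Scnn1g* ranges of *Cfb-/-* mice were apart. *Scnn1b* differed by 0.22 ± 0.288 in WT (adjusted p = 0.551) and 0.61 ± 0.288 in *Cfb-/-* mice (adjusted p = 0.118). *Scnn1g* differed by 0.37 ± 0.258 in WT (adjusted p = 0.252) and 0.61 ± 0.258 in *Cfb-/-* mice (adjusted p = 0.0809).

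Neither WNK kinase passed the test with diabetes. *Wnk1* stood at 30.7, 15.4, and 26.6 FPKM in WT control mice, at 43.5, 28.6, 23.7, and 40.0 in WT diabetic mice, at 31.2, 33.4, and 32.8 in *Cfb-/-* control mice, and at 52.5, 46.9, 46.1, and 36.1 in *Cfb-/-* diabetic mice. The *Cfb-/-* groups were apart and the WT groups overlapped. *Wnk1* differed by 0.50 ± 0.232 in WT (adjusted p = 0.0889, limma) and by 0.47 ± 0.232 in *Cfb-/-* mice (adjusted p = 0.133). It passed in WT mice without WT control mouse 1 (0.70, adjusted p = 0.0299) or WT diabetic mouse 3 (0.66, adjusted p = 0.0332). *Wnk4* spanned 28.7 to 45.4 FPKM in WT control, 27.6 to 37.5 in WT diabetic, 36.2 to 37.4 in *Cfb-/-* control, and 29.9 to 50.6 in *Cfb-/-* diabetic mice, which overlapped in both genotypes. *Wnk4* differed by -0.14 ± 0.183 in WT (adjusted p = 0.555) and by 0.12 ± 0.183 in *Cfb-/-* mice (adjusted p = 0.646). With median-ratio scaling, *Wnk4* was lower in WT diabetic mice (-0.42, adjusted p = 0.0448).

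**Figure D2:**
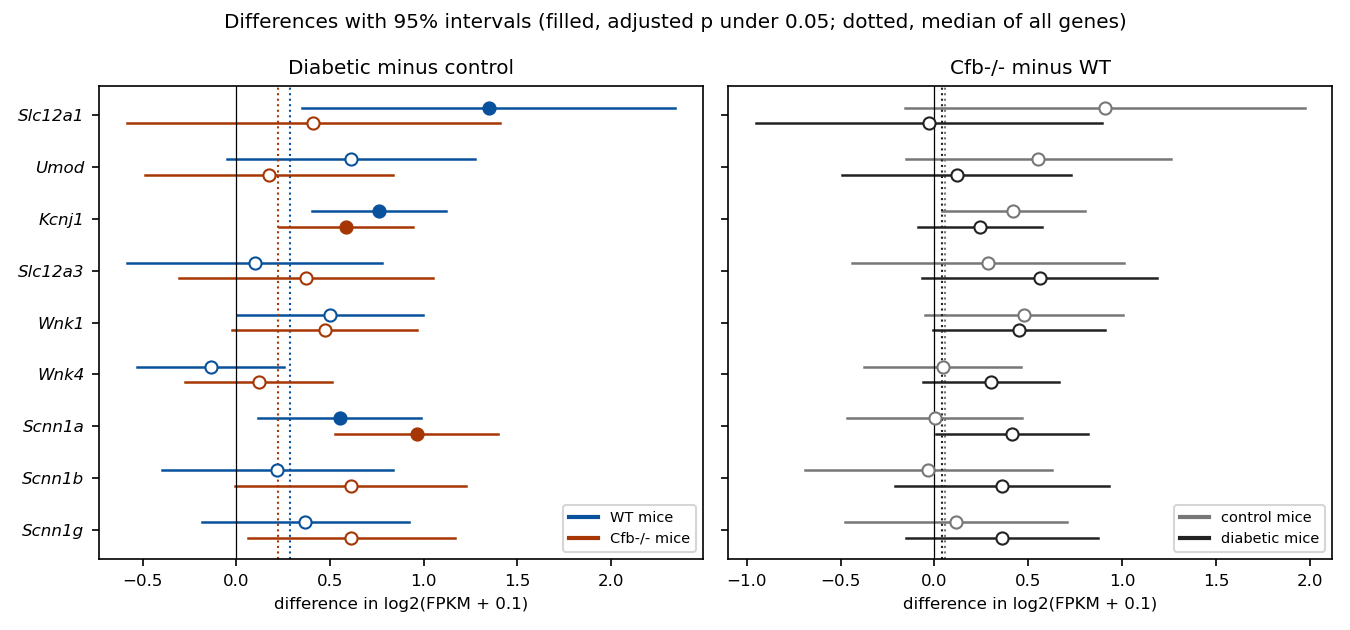
Difference in log2(FPKM + 0.1) between groups (horizontal axes) for each of the 9 genes, with 95% intervals from limma; left, diabetic minus control mice of each genotype; right, *Cfb-/-* minus WT mice of each diabetes state. Filled points passed an adjusted p under 0.05 and dotted lines give the median of all genes, 0.29 and 0.22 on the left: *Kcnj1* and *Scnn1a* are filled in both genotypes and *Slc12a1* in WT mice, and no point is filled on the right.

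The study set *Cfb-/-* against WT mice, in diabetes and without it. None of the 9 genes passed the test between genotypes. In diabetic mice *Cfb* alone was called among 14912 genes, 0.00671% of them. An unadjusted p under 0.05 was reached there by 448 genes, of which *Scnn1a* was the only member (0.41 ± 0.189, SE, with an adjusted p = 1 from limma). In control mice *Cfb* alone was again called, 0.00671% of the genes. An unadjusted p under 0.05 was reached there by 2614 genes, of which *Kcnj1* was the only member (0.42 ± 0.178, with an adjusted p = 0.263 from limma). Without WT control mouse 1, 1724 genes were called in control mice, and 0 members among them. *Cfb-/-* control mice lay wholly above WT control mice for 2 of 9 members, *Slc12a3* and *Wnk1*, where 6.67% of all genes did so. Neither passed the test (adjusted p = 0.666 and 0.318, limma), and the nearest mice for *Wnk1* held 31.2 and 30.7 FPKM. Among diabetic mice, 0 of 9 members lay wholly higher in *Cfb-/-* mice, where 1.86% of all genes did. In diabetic mice the largest member difference was that of *Slc12a3*, 0.56 ± 0.293 (interval from -0.07 to 1.19), followed by *Wnk1* at 0.45 ± 0.214 (from -0.01 to 0.91). In control mice it was that of *Slc12a1*, 0.91 ± 0.498 (from -0.16 to 1.97). The 9 differences reached down to -0.03 (*Slc12a1*) in diabetic mice, with a median of 0.36 against 0.04 over all genes. In control mice they reached down to -0.03 (*Scnn1b*), with a median of 0.28 against 0.06. Most members varied together between mice, so the 9 differences are not separate observations.

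The effect of diabetes was also set against itself in the 2 genotypes. The interaction called 0 genes (0%), with 861 genes at an unadjusted p under 0.05 and 0 members among them. The interaction of *Slc12a1*, called in WT mice only, was -0.94 with an interval from -2.35 to 0.47 (adjusted p = 0.779, limma), and that of *Scnn1a* was 0.41 with an interval from -0.20 to 1.03 (adjusted p = 0.779). The members therefore were not shown to respond differently in the 2 genotypes, and the intervals allow differences of that size.

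Ratios of members in the kidney RNA of each mouse were compared by exact two-sided permutation. Mice were permuted within genotype (1225 assignments) or within diabetes state (1400 assignments), with p-values adjusted over the 6 ratios. These are ratios in tissue RNA and do not show a shift within a segment. The ratio of *Wnk4* to *Wnk1* fell with diabetes. It stood at 1.13, 1.87, and 1.71 in WT control mice, at 0.810, 0.965, 1.27, and 0.936 in WT diabetic mice, at 1.18, 1.12, and 1.10 in *Cfb-/-* control mice, and at 0.90, 1.08, 0.770, and 0.827 in *Cfb-/-* diabetic mice. The *Cfb-/-* groups were apart, and WT diabetic mouse 3 alone exceeded a WT control mouse. The mean log2 ratio fell by 0.50 over both genotypes (exact permutation p = 0.00571, adjusted p = 0.0343), by 0.64 in WT and 0.35 in *Cfb-/-* mice. The call was lost without any 1 of 9 of the 14 mice, with an adjusted p of up to 0.0857.

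The ratios of the ENaC beta and gamma subunits to alpha did not pass. *Scnn1b* per *Scnn1a* averaged 0.503 ± 0.18 in WT control (SD, n = 3), 0.384 ± 0.0431 in WT diabetic (n = 4), 0.478 ± 0.106 in *Cfb-/-* control (n = 3), and 0.370 ± 0.0392 in *Cfb-/-* diabetic mice (n = 4). The log2 ratio differed by -0.34 with diabetes (exact permutation p = 0.0482, adjusted p = 0.10), and that of *Scnn1g* to *Scnn1a* by -0.27 (p = 0.0669, adjusted p = 0.10). Per *Slc12a1*, the log2 ratio of *Umod* differed by -0.49 (exact permutation p = 0.0604, adjusted p = 0.10), that of *Slc12a3* by -0.64 (p = 0.294, adjusted p = 0.353), and that of *Kcnj1* by -0.21 (p = 0.568). Between genotypes no ratio passed, and the smallest adjusted p was 0.523, that of *Wnk4* to *Wnk1* (-0.29, exact permutation p = 0.0871).

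Between mice of the same group, *Umod* varied with *Slc12a1*, and the WNK kinases and ENaC subunits varied with *Slc12a3*. *Kcnj1* had an r of 0.598 with *Umod* and of 0.047 with *Slc12a3*, both without a test. As deviations from the group means over 14 mice, *Slc12a1* and *Umod* varied together (Pearson r = 0.831, exact permutation p = 0.00603, adjusted p = 0.010 over 5 pairs; Spearman rho = 0.785, p = 0.00931). *Slc12a3* and *Wnk4* did as well (r = 0.817, exact permutation p = 0.00145, adjusted p = 0.00723; rho = 0.855, p = 0.00646), as did *Scnn1b* and *Scnn1g* (r = 0.850, exact permutation p = 0.00468, adjusted p = 0.010; rho = 0.851, p = 0.00217). *Wnk1* and *Wnk4* correlated at r = 0.685 (exact permutation p = 0.0339, adjusted p = 0.0424; rho = 0.705, p = 0.0260), which with median-ratio scaling became 0.531 (adjusted p = 0.107). Without the 2 mice farthest from the median of the first gene, r was 0.682, 0.791, 0.708, and 0.643 in this order. The correlation of *Slc12a1* and *Kcnj1* did not pass (r = 0.500, exact permutation p = 0.205; rho = 0.442, p = 0.229), and r was 0.154 without the 2 farthest mice. The promoter stretches shown above belong to the first 3 of these pairs.

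**Figure D3:**
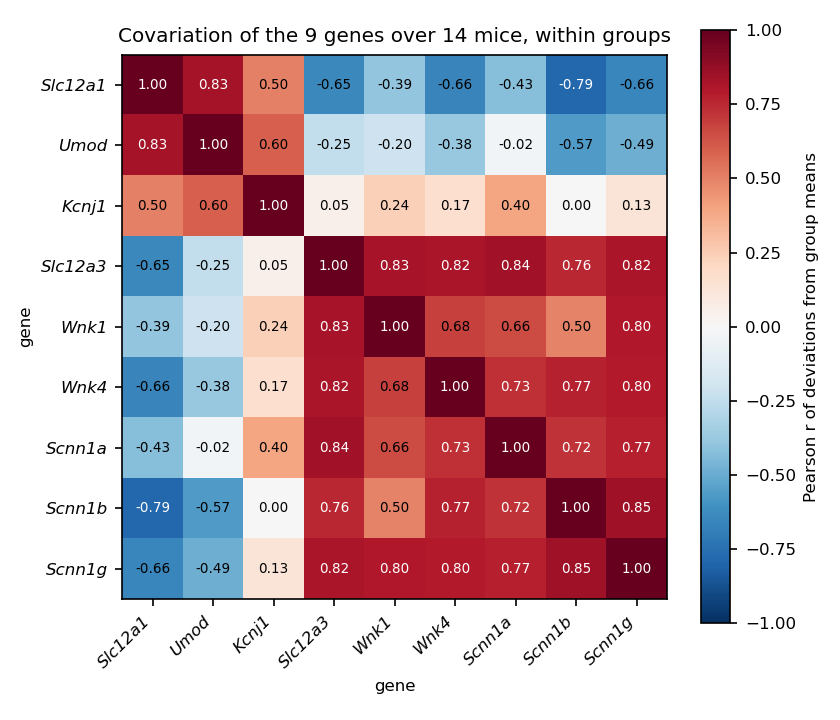
Pearson r between the deviations of each pair of the 9 genes from their group means, over 14 mice, from -1 (blue) to 1 (red). *Slc12a3*, *Wnk1*, *Wnk4*, and the 3 ENaC subunits form a block of positive values (0.50 to 0.85), and *Slc12a1* and *Umod* (0.83) stand apart from it with negative values. *Kcnj1* lies from 0.00 to 0.40 with the block and at 0.50 and 0.60 with *Slc12a1* and *Umod*.

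The 2 cotransporters went in opposite directions, a relation chosen for description after the values were seen. *Slc12a1* and *Slc12a3* correlated at r = -0.646 (exact permutation p = 0.0158; rho = -0.666, p = 0.0166; r = -0.833 without the 2 farthest mice). The order followed markers of the inner medulla, the innermost kidney zone (*Slc14a2*, *Cryab*, *Akr1b3*, and *Aqp1*, averaged per mouse on the log2 scale). *Aqp1*, a water channel, is made by the proximal tubule as well, so the average was also taken over the 3 other markers. *Slc14a2*, the urea transporter of the inner medullary collecting duct, stood at 0.111 FPKM in WT diabetic mouse 1, at 2.78 in mouse 4, at 16.4 in mouse 3, and at 25.7 in mouse 2. The same mice, in that order, had 125, 145, 258, and 358 FPKM of *Slc12a1*. *Slc14a2* was listed at 0 in WT control mouse 3, the mouse with the lowest *Slc12a1*.

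Within groups, the inner medulla markers correlated with *Slc12a1* at r = 0.821 (exact permutation p = 0.00231; rho = 0.846, p = 0.00188; r = 0.791 without the 2 farthest mice) and with *Slc12a3* at r = -0.850 (exact permutation p = 0.00159; rho = -0.820, p = 0.00627; r = -0.783). Adjusted over the 10 relations chosen in this way, both p-values were 0.00772. *Umod* followed *Slc12a1* (r = 0.608), and *Wnk4* (r = -0.789), *Wnk1* (r = -0.799), *Scnn1g* (r = -0.782), *Scnn1b* (r = -0.693), and *Scnn1a* (r = -0.594) followed *Slc12a3* (exact permutation, adjusted p from 0.00772 to 0.0465 for these 6 values of r and from 0.00627 to 0.0552 for rho). The correlation of *Kcnj1* with the markers did not pass (r = 0.201, exact permutation p = 0.531). Without *Aqp1* in the average, r was 0.797 for *Slc12a1* (exact permutation p = 0.00328) and -0.834 for *Slc12a3* (p = 0.00183), both with an adjusted p of 0.00984 over the 9 members. The summed FPKM of the 3 markers other than *Aqp1* ranged from 42.4 to 105 in WT control, from 102 to 308 in WT diabetic, from 90.9 to 171 in *Cfb-/-* control, and from 121 to 142 in *Cfb-/-* diabetic mice, and *Aqp1* alone from 236 to 485 over all mice. *Cryab* alone of the 4 was called higher in WT diabetic mice and 0 of 4 in *Cfb-/-* diabetic mice.

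These markers moved with the result for *Slc12a1*. With the marker average as a covariate, an alternative added after the values were seen, the difference of *Slc12a1* in WT diabetic mice was 0.45 (adjusted p = 0.276, limma), against 1.35 without it. With the same covariate, 6 of 9 members were higher in WT diabetic mice, namely *Wnk1* (0.92, adjusted p = 0.00138), *Scnn1a* (0.82, 0.00587), *Scnn1g* (0.83, 0.00588), *Kcnj1* (0.69, 0.0135), *Slc12a3* (0.72, 0.0155), and *Scnn1b* (0.68, 0.0462), where 36.6% of all genes were higher. Without *Aqp1* in the average, the difference of *Slc12a1* was 0.44 (adjusted p = 0.319, limma), *Scnn1b* did not pass (adjusted p = 0.0570), and 5 of 9 members were higher, where 36.5% of all genes were. In *Cfb-/-* mice, *Kcnj1* (0.61, adjusted p = 0.0149) and *Scnn1a* (0.88, adjusted p = 0.00189) were called with the covariate as without it, where 26.9% of all genes were higher, or 26.5% without *Aqp1* in the average. *Kcnj1* and *Scnn1a* were called in both genotypes with and without either marker average. The averages were chosen after the values were seen and correlated with most members within groups. Changes of the members under these covariates follow in part from that choice and are no separate evidence.

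**Figure D4:**
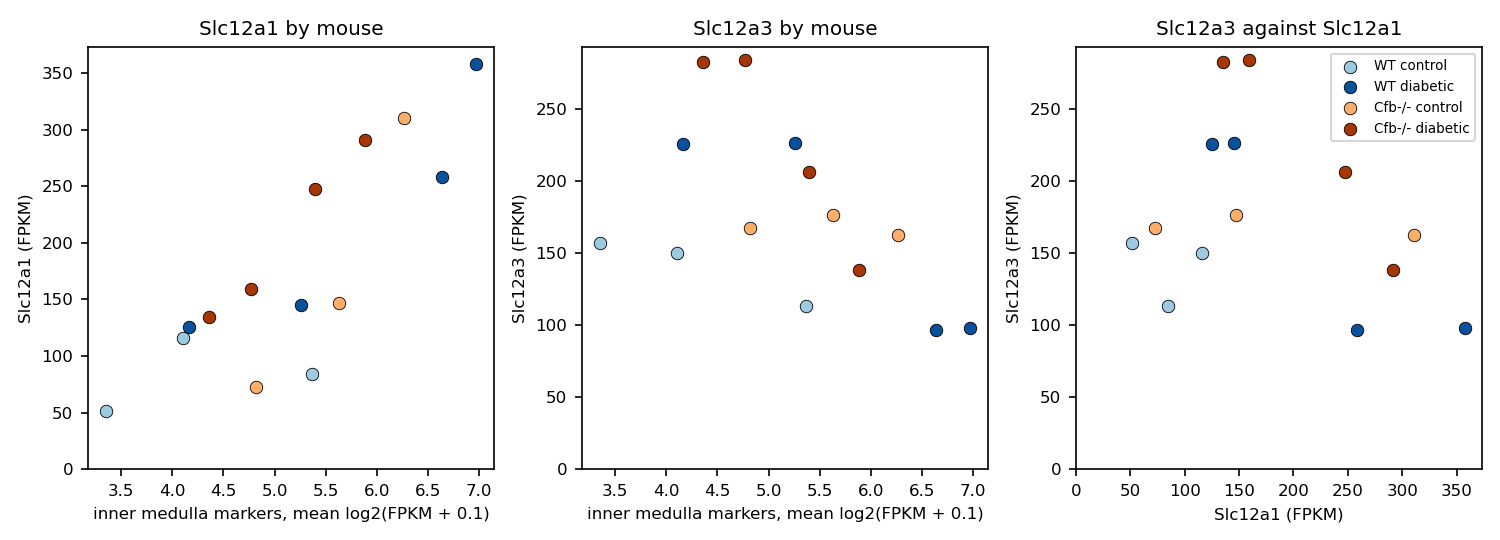
*Slc12a1* (left) and *Slc12a3* (middle) in FPKM against the mean log2(FPKM + 0.1) of the 4 inner medulla markers, and *Slc12a3* against *Slc12a1* (right), with a point per mouse coloured by group. *Slc12a1* rises and *Slc12a3* falls along the marker axis, and WT diabetic mice 2 and 3 lie at the far end with 358 and 258 FPKM of *Slc12a1* and 97.8 and 96.3 of *Slc12a3*.

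Other cell markers moved with diabetes as well. The 5 proximal tubule genes summed to 1948 to 2521 FPKM in WT control and 749 to 989 in WT diabetic mice, and to 1695 to 2016 in *Cfb-/-* control and 558 to 1091 in *Cfb-/-* diabetic mice. Of these, 3 were called lower in WT and 4 in *Cfb-/-* mice. The 4 genes of injured tubule (*Havcr1*, *Lcn2*, *Vcam1*, and *Krt20*) summed to 3.5 to 6.64 FPKM in control and 49.7 to 138 in diabetic mice, and 4 of 4 were higher in both genotypes. The 5 urothelium genes were called higher in WT and 0 of 5 in *Cfb-/-* diabetic mice, with 0.279 to 0.610 FPKM summed in WT control and 0.690 to 45.7 in WT diabetic mice. The 4 adipocyte genes were called higher in WT diabetic mice too, with 0 to 0.116 FPKM against 6.75 to 30.0, and 0 of 4 in *Cfb-/-* mice. The interaction called none of these genes. Of macrophage markers, 4 of 4 were higher in WT and 3 in *Cfb-/-* diabetic mice, of endothelium 2 and 3 of 4, of podocytes 1 and 3 of 3, and of intercalated cells 2 and 1 of 5, with 1 lower in WT mice. The part of these cells in the differences of the members was not tested.

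The genes of the fixed pathway lists gave the setting of the members. In the thick limb, 6 of 13 transport partners were higher and 2 lower in WT diabetic mice, and 2 were higher and 1 lower in *Cfb-/-* diabetic mice, beside 36.2% higher and 9.97% lower of all genes in WT and 27.4% and 6.40% in *Cfb-/-* mice. The median difference of the 13 partners was 0.35 in WT and 0.32 in *Cfb-/-* mice, against 0.29 and 0.22 over all genes. The claudins of paracellular magnesium and calcium uptake rose, *Cldn16* by 1.42 (WT) and 1.49 (*Cfb-/-*) and *Cldn19* by 1.78 and 1.08, whereas *Cldn10*, the claudin of paracellular sodium, fell by 0.69 and 0.86. *Fxyd2*, the gamma subunit of the sodium pump, fell by 0.79 in WT mice. The values are per gene, so transcripts of *Cldn10* are not separated. In which segment *Cldn10* and *Fxyd2* fell was not tested. Of 5 thick limb marker genes, *Cldn16*, *Cldn19*, and *Ptger3* were higher and *Cldn10* lower in WT diabetic mice, with a median difference of 1.33, and *Cldn16* and *Cldn19* were higher and *Cldn10* lower in *Cfb-/-* diabetic mice, with a median of 0.76. Their sums, to which *Cldn10* gave 81.7 to 151 FPKM as a group mean, overlapped between control and diabetic mice, at 163 to 204 and 118 to 201 FPKM in WT and at 166 to 202 and 128 to 173 in *Cfb-/-* mice.

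In the distal convoluted tubule, 3 of 13 partners were higher and 1 lower in WT diabetic mice, and 3 were higher and 0 lower in *Cfb-/-* diabetic mice. Of all genes, 36.2% were higher and 9.97% lower in WT mice, and 27.4% and 6.40% in *Cfb-/-* mice. *Trpv5*, the apical calcium channel, rose by 1.25 (WT) and 1.18 (*Cfb-/-*), and *Tfap2b*, a transcription factor of this segment, by 1.24 and 0.79. *Kcnj10*, a basolateral potassium channel, rose by 0.64 in WT mice, and *Calb1*, a cytosolic calcium buffer, by 0.81 in *Cfb-/-* mice. The lower gene in WT mice was *Fxyd2*, which this list shares with that of the thick limb. The 4 marker genes of the segment summed to 165 to 223 FPKM in WT control and 159 to 411 in WT diabetic mice (0 of 4 called higher), and to 200 to 242 and 242 to 464 in *Cfb-/-* mice (1 of 4, *Calb1*).

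Among the partners of the WNK kinases, 3 of 10 tested were higher in WT and 2 in *Cfb-/-* diabetic mice, and 0 were lower. The shares of all genes higher were 36.2% and 27.4%. *Sgk1*, the aldosterone-induced kinase, rose by 1.86 (WT, adjusted p = 0.000106) and 1.73 (*Cfb-/-*, adjusted p = 0.000200). *Stk39*, which encodes SPAK, the kinase between the WNKs and both cotransporters, rose by 1.14 (adjusted p = 0.000102) and 0.80 (adjusted p = 0.00168). *Oxsr1*, which encodes the related OSR1, differed by 0.27 and 0.12, and the parts of the ligase that degrades WNK kinases, *Klhl3* (0.55 and 0.26) and *Cul3* (0.04 and -0.09), did not pass either. *Wnk3* was too low to be tested, and *Cab39*, which encodes a scaffold that activates SPAK, rose by 0.42 in WT mice.

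Of the genes around ENaC and aldosterone, 6 of 14 were higher and 1 lower in WT diabetic mice, and 4 were higher and 1 lower in *Cfb-/-* diabetic mice. The proteases went both ways. *St14*, which encodes matriptase, rose by 1.39 (WT) and 1.12 (*Cfb-/-*), and *Tmprss2* by 0.76 and 0.66, whereas *Prss8*, which encodes prostasin, fell by 0.74 and 0.60. *Kcnma1*, the pore of the BK potassium channel, rose by 1.02 and 0.81 at a low level. Its means were 0.0982 FPKM in WT control, 0.304 in WT diabetic, 0.134 in *Cfb-/-* control, and 0.299 in *Cfb-/-* diabetic mice. These lie near the 0.1 added before the log, on which its differences depend. *Nr3c2*, the mineralocorticoid receptor, rose by 0.74 in WT mice (adjusted p = 0.0449) and differed by 0.29 in *Cfb-/-* mice. *Nedd4l*, the ligase that removes ENaC from the membrane (0.18 and 0.26), and *Hsd11b2*, the enzyme that keeps glucocorticoids from the receptor (-0.48 and -0.09), did not pass the test. The 5 markers of principal cells, which carry ENaC in the collecting duct, summed to 157 to 205 FPKM in WT control and 186 to 575 in WT diabetic mice (*Aqp2*, *Avpr2*, and *Gata3* called higher), and to 160 to 263 and 199 to 334 in *Cfb-/-* mice (*Gata3* called higher). Beside the shares of all genes given for the thick limb, the lists of the convoluted tubule, the WNK kinases, and ENaC had median differences of 0.25, 0.28, and 0.28 in WT mice (0.29 over all genes) and of 0.49, 0.15, and 0.20 in *Cfb-/-* mice (0.22). Between genotypes, 0 genes of the 4 lists were called.

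The genes whose levels followed each member most closely within groups were found among 11395 genes averaging 1 FPKM or more, as Pearson r over 14 mice and without a test. Those closest to *Slc12a1* were *Pcsk6* (0.967), *Plxdc2* (0.962), and *Oxct1* (0.961), and those closest to *Umod* were *Reep5* (0.942), *Mipep* (0.931), and *Cpt1b* (0.922). *Kcnj1* was followed by *Capn2* (0.940), *Hk1* (0.930), and *Nfe2l1* (0.918). For *Slc12a3* they were *Tmem52b* (0.965), *Slc26a4* (0.947), and *Plcd4* (0.939), and for *Wnk4* they were *Slc27a3* (0.979), *Plppr2* (0.974), and *Hdac7* (0.968). *Wnk1* was closest to *Gca* (0.965), *Tfcp2l1* (0.960), and *Stc1* (0.952). Of the ENaC subunits, *Scnn1a* was closest to *Enc1* (0.940), *Trib1* (0.934), and *Sox9* (0.931), *Scnn1b* to *Shisa4* (0.970), *Kcne1* (0.970), and *Rhbg* (0.967), and *Scnn1g* to *Trpv5* (0.974), *Tox3* (0.956), and *Atp6v0d2* (0.952). The nearest genes of the 9 members did not overlap, and all these values share the same mice and libraries.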

How the data were processed

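Kidney mRNA was sequenced from 14 mice, 1 library each, and groups were taken from the sample titles. The authors deposited a value per gene and mouse, read here as FPKM because the values are not whole and step inversely with transcript length. Per the labels, Trimmomatic, HISAT2, Cufflinks, HTSeq, and DESeq were used with GRCm38.p6, and their versions are not given in the sources used here. Absolute depth is unknown.

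The FPKM were transformed as log2(FPKM + 0.1), which understates changes of low genes. A gene was kept if 3 or more mice reached 0.1 FPKM, and the 14912 genes kept were fitted over all 14 mice with limma 3.58.1 (R 4.3.3, mean-variance trend, a mean per group) and adjusted by Benjamini-Hochberg over all of them. The fit was tested on simulated data. Ratios and correlations used exact permutation in Python 3.11.15 with numpy 2.4.6 and scipy 1.17.1. Pathway and marker lists were fixed by symbol. The genes named are the 9 members, *Cfb*, 8 listed regulators, up to 3 of the largest called rises and falls per pathway list, the genes behind counts of 5 or fewer, and the 3 genes most like each member, except for an item that is not reported here. The members and lists were chosen with earlier results of these data known.

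Same-numbered mice of different groups were not correlated (median r = 0.0221, with 3 of 19 pairs above 0.1), so the numbers do not pair the mice. Alternatives covered scaling, filter, pseudocount, the groups in the fit, a replicate block, each mouse left out, and 2 added marker covariates.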

Additional observations from a re-analysis of the deposited data

Results flagged for a closer look

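Of 18 sets of 4 diabetic mice (9 genes in 2 genotypes), 1 held a mouse far from the others. *Umod* stood at 787 FPKM in *Cfb-/-* diabetic mouse 1 and at 991 to 1026 in the rest of that group, a gap of 0.855 of the group's range, past Dixon's 95% limit for 4 values. Chance alone passes this limit in about 1 of 20 sets.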

How the results depend on the processing

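Of the 5 counts of members called, those between genotypes and of the interaction stayed at 0 under each alternative. The count of 3 in WT diabetic mice became 6 with the inner medulla markers as covariate, 5 with these markers other than *Aqp1*, 2 with median-ratio scaling (*Kcnj1* higher and *Wnk4* lower), 2 without a filter, 2 with a replicate block, and 1 to 4 without single mice. It was 1 without WT control mouse 2 or 3. Quantile normalization left it at 3, with *Umod* (0.94, adjusted p = 0.0334) in place of *Scnn1a*. The count of 2 in *Cfb-/-* mice became 1 with median-ratio scaling and 3 with the compared groups alone, and ranged from 1 to 2 without single mice, with 1 when *Cfb-/-* control mouse 1 or 2 was left out. Under the replicate block, *Slc12a1* in WT mice lost its call (adjusted p = 0.0585), and no other call of a member changed. The causes were not tested.

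Differences that did not pass the test also turned in sign. With median-ratio scaling they became, for diabetes in WT mice, -0.062 (*Scnn1b*) and -0.18 (*Slc12a3*), for diabetes in *Cfb-/-* mice, -0.069 (*Umod*) and -0.12 (*Wnk4*), and between control genotypes, -0.091 (*Scnn1a*) and -0.047 (*Wnk4*). With the marker covariate, they became 0.37 (*Scnn1b*, control genotypes), 0.37 (*Slc12a1*, diabetic genotypes), and 0.18 (*Wnk4*, WT diabetes), or 0.37, 0.37, and 0.19 without *Aqp1* in it, and quantile normalization gave 0.060 for *Slc12a1* between diabetic genotypes. Without single mice, the differences between control genotypes ranged from -0.043 to 0.081 (*Scnn1a*), -0.23 to 0.18 (*Scnn1b*), -0.11 to 0.26 (*Scnn1g*), and -0.11 to 0.22 (*Wnk4*), and that of *Slc12a1* between diabetic genotypes from -0.26 to 0.24. With diabetes they ranged from -0.11 to 0.94 (*Slc12a1*) and -0.22 to 0.59 (*Umod*) in *Cfb-/-* mice, and from -0.11 to 0.30 (*Slc12a3*) and -0.29 to 0.037 (*Wnk4*) in WT mice.

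Without single mice, the log2 ratio differed with diabetes by -0.61 to -0.42 (*Wnk4* to *Wnk1*), -0.48 to -0.21 (*Scnn1b* to *Scnn1a*, past the threshold without *Cfb-/-* control mouse 3 or WT control mouse 1), and -0.36 to -0.17 (*Scnn1g* to *Scnn1a*, past it without *Cfb-/-* control mouse 3 or WT control mouse 2). Between genotypes it ranged from -0.27 to 0.26 (*Slc12a3* to *Slc12a1*), -0.30 to 0.052 (*Kcnj1* to *Slc12a1*), -0.18 to 0.085 (*Scnn1b* to *Scnn1a*), and -0.06 to 0.13 (*Scnn1g* to *Scnn1a*). The correlation of *Wnk1* and *Wnk4* was 0.53 with median-ratio scaling and 0.58 to 0.79 without single mice, and lost its call without 8 of 14. The other 4 correlations kept their side of the threshold under each alternative. The number of mice, 3 or 4 per group, limits the precision, and absolute depth is unknown.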
